A study of Mus musculus with 6 samples.

Results

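Hepatic stellate cell and myofibroblast markers were examined by RNA sequencing of hepatocellular carcinomas that arose in WT mice and in mice without Top1mt, the nuclear gene for the mitochondrial type IB topoisomerase. The markers were 10 genes taken by symbol from a table of 30236: Lrat, Reln and Des for quiescent stellate cells, Acta2 and Tagln for activated cells, the receptors Pdgfra and Pdgfrb, the matrix proteoglycans Lum and Dcn, and the ligand Tgfb1. All 10 were found, and all 10 were among the 22677 genes tested, which left out the lowest 25% by mean. The tumors came from 2 groups of 3 libraries, WT and Top1mt -/- (called KO here). All were male C57BL/6 mice that had received the carcinogen diethylnitrosamine at postnatal day 14 and the hepatotoxin carbon tetrachloride for 14 weeks from week 8, with tumors collected at week 22. The KO line was kept by heterozygous breeding, and the WT animals were littermates. Untreated liver and the tissue around the tumors were not analysed here, so the levels cannot be set against uninjured liver. Values of single tumors are listed in the order of replicates 1, 2 and 3. Each value is the authors' log2 expression value, normalized between libraries. The transform behind it is not given in the sources used here, and a difference of 1 on a log2 scale is a doubling of that value. Ratios, sums and levels per kilobase are thus of these values, and whether they equal ratios of RNA is not known.

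Stellate cells lie between the hepatocytes and the sinusoidal endothelium. In the healthy liver they are quiescent and store vitamin A as retinyl esters, which LRAT makes. After injury they turn into contractile myofibroblasts that carry smooth muscle actin, respond to PDGF and TGF-beta, and lay down collagen and proteoglycans, and carbon tetrachloride is a standard means of bringing this about in mice.

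The promoters of Lrat (quiescent class), Acta2 (activated class) and Reln, which was high in the tumor where most markers were lowest, are shown. Each is the 250 bases before the annotated start, 5′ to 3′ on the strand of the gene, from RefSeq on GRCm38.p6, where windows were matched for 6 of the 10 markers. They lie at chr3:82903975-82904224 (Lrat, minus strand), chr19:34255374-34255623 (Acta2, minus strand) and chr5:22344706-22344955 (Reln, minus strand). Capitals mark 3 motifs searched on both strands: the CArG box of serum response factor with at most 1 inner letter other than A or T, TATAA, and the TEAD motif CATTCC.
Lrat promoter: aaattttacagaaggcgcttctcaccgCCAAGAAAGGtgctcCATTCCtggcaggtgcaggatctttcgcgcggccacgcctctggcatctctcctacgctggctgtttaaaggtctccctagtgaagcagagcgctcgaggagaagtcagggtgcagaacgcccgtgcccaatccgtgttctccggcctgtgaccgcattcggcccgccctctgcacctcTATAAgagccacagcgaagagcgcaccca
Acta2 promoter: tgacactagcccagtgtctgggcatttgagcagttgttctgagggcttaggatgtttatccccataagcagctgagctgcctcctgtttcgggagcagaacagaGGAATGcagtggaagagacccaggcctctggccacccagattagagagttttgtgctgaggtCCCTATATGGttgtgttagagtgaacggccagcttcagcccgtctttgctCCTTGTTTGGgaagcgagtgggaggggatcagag
Reln promoter: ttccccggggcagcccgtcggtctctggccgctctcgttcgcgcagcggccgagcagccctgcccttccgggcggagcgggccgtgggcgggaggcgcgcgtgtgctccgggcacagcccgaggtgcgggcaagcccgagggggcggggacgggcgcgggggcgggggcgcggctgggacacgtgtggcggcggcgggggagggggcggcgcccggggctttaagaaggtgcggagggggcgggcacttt
Acta2 held CArG-like stretches at -84 to -75 and at -34 to -25 from the start, and CATTCC on the opposite strand at -146 to -141. Lrat held 1 CArG-like stretch at -223 to -214, CATTCC at -208 to -203 and TATAA at -29 to -25. None of these matches overlapped another, and Reln held none of the 3 motifs. Among all 32851 windows of this length the CArG-like form was in 8.59%, TATAA in 22.8% and CATTCC in 12.6%. The strict CArG box was in 1.47% of windows and in 0 of the 6 matched. The Reln window had a GC content of 80.0%, above 98.8% of windows, against 53.6% for Acta2. A match describes letters only.

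The libraries were first checked. Top1mt was 7.71, 5.99 and 8.01 across the WT tumors and 5.58, 6.41 and 6.32 across the KO tumors, so the library labelled WT replicate 2, below KO replicates 2 and 3, went against its label and every direction rests on labels. In KO replicate 1 the gene Gm42418 took 17.7% of the values summed on the linear scale, against at most 0.387% elsewhere. Lars2 took 4.62% in KO replicate 1, against at most 0.0440% elsewhere. The median over all genes tested was 5.67 in that library and 5.65 to 5.83 in the others. Without WT replicate 2 the difference in Top1mt was -1.76, against -1.13 with all 6 libraries. The markers that this library moved by over 1.5 times were Pdgfra (-0.85 without it) and Tgfb1 (-0.14), and no marker changed direction without it. The labels do not say that each tumor came from a separate mouse, so p-values measure the spread between these libraries.

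The genotypes overlapped in every one of the 10 markers. None passed an adjusted p of 0.05 by limma, where 0% of all genes tested passed, and the smallest adjusted p of a marker under any alternative was 0.429. Reln had that value, without KO replicate 1. In 0 of 10 markers did the WT and KO libraries separate without overlap, against 3.95% of all genes tested higher in KO and 4.33% lower. At an unadjusted p under 0.05 by limma there was 1 marker, Lrat, on the lower side, where 2.56% of all genes were, and 0 on the higher side, where 1.79% were. These shares also stand beside every other gene named below as under that p or as not overlapping. The means of 9 markers were lower in KO and that of Acta2 was higher, with a median log2 fold change of -0.46 beside -0.015 over all genes tested, of which 52.3% were lower.

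Most markers had their extremes in 2 libraries. KO replicate 1 was the lowest of the 6 in 7 markers and WT replicate 1 the highest in 7, while over all genes tested these libraries held those places in 17.2% and 17.1% of genes. Without KO replicate 1 the median over the markers was -0.11, and without WT replicate 1 it was -0.16. Leaving out KO replicate 1 alone turned the sign of Des, Pdgfrb and Tgfb1, and leaving out WT replicate 1 alone that of Pdgfra. With both left out, an alternative chosen after seeing the data, Lrat and Reln were lower in KO (-0.51 and -1.06) and the other 8 were higher. Where these libraries were the lowest and the highest, leaving them out raises the difference by construction. RNA came from whole tumor tissue, so fewer stellate cells and less RNA per cell cannot be told apart. KO replicate 1 was also the library in which Gm42418 took 17.7% and Lars2 4.62% of the summed values. The part of this in its low marker values was not tested.

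**Figure D1:**
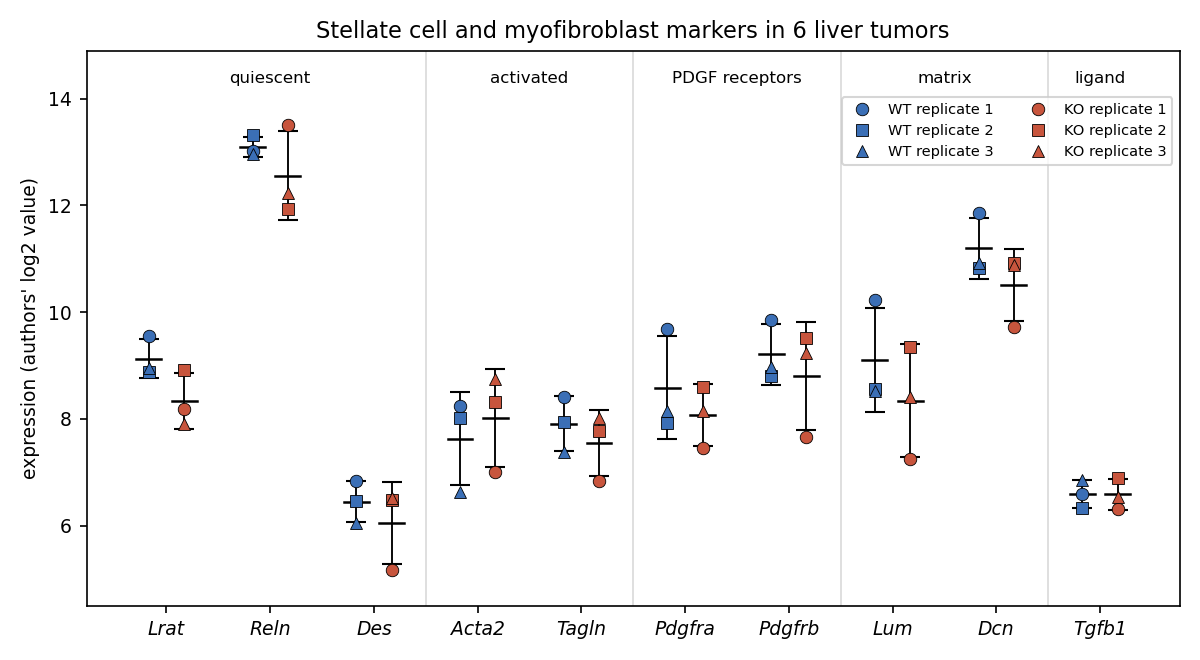
The authors' log2 values of the 10 markers (y axis) are shown for each WT (blue) and KO (red) tumor, with symbols for replicates 1 to 3, and bars for the mean and SD of 3 libraries. KO replicate 1 lies lowest in 7 markers and highest in Reln, and the genotypes overlap in every marker.

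Among the quiescent markers, Lrat, which esterifies retinol for storage, differed most between genotypes. It was 9.54, 8.88 and 8.96 across the WT tumors and 8.19, 8.92 and 7.91 across the KO tumors. The groups overlapped only because KO replicate 2 lay just above WT replicate 2. WT averaged 9.13 ± 0.36 (SD, n = 3), KO 8.34 ± 0.52 (SD, n = 3). The log2 fold change was -0.79 (standard error 0.29, 95% interval -1.46 to -0.12), a KO level 0.579 times that of WT (interval 0.365 to 0.919). Its unadjusted p by limma was 0.0259 and its adjusted p by limma 0.999. The exact two-sided permutation test gave p = 0.2, where 3 against 3 allow no p below 0.1. Lrat kept its direction with each library left out, from -1.08 to -0.57, and its unadjusted p by limma ran from 0.00277 to 0.101 over the alternatives.

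Reln encodes reelin, a large secreted glycoprotein that stellate cells make in the liver. Which cells made it in these tumors was not tested. Reln was 13.02, 13.32 and 12.97 in WT replicates 1, 2 and 3, a narrow range, and 13.50, 11.93 and 12.24 in KO. The KO tumors thus held both the highest value and the lowest. WT averaged 13.10 ± 0.19 (SD, n = 3), KO 12.56 ± 0.83 (SD, n = 3). The log2 fold change was -0.55 (standard error 0.38, interval -1.43 to 0.33, adjusted p = 0.999 by limma). Without KO replicate 1 it was -1.02 (unadjusted p = 0.00129, adjusted p = 0.429 by limma), and without KO replicate 2 it was -0.23. An antisense transcript, Gm10475, shares 246 exonic bases with Reln and was 1.104 to 4.85 in the 6 libraries.

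Des, desmin, is an intermediate filament of stellate cells and of muscle. It was 6.83, 6.47 and 6.06 across the WT tumors and 5.17, 6.48 and 6.52 across the KO tumors. Apart from KO replicate 1, all libraries lay within the WT range. The log2 fold change of -0.40 (standard error 0.41, interval -1.35 to 0.56, adjusted p = 0.999 by limma) turned to 0.048 without KO replicate 1.

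The activated markers did not share a direction. Acta2, alpha smooth muscle actin, was 8.24, 8.01 and 6.63 across the WT tumors and 6.998, 8.31 and 8.75 across the KO tumors. WT replicate 3 and KO replicate 1 were low, and the other 4 libraries lay between 8.01 and 8.75. WT averaged 7.63 ± 0.87 (SD, n = 3), KO 8.02 ± 0.91 (SD, n = 3), a log2 fold change of 0.39 (standard error 0.54, interval -0.85 to 1.63, adjusted p = 0.999 by limma). Leaving out KO replicate 1 gave 0.90, and leaving out WT replicate 3 gave -0.11. Tagln, the actin-binding protein transgelin (SM22 alpha), was 8.41, 7.94 and 7.39 across the WT tumors and 6.84, 7.77 and 8.02 across the KO tumors. Its log2 fold change was -0.37 (standard error 0.36, interval -1.20 to 0.47, adjusted p = 0.999 by limma), and -0.014 without KO replicate 1. The antisense gene Gm48529 covers 62.4% of the exonic bases of Tagln in GENCODE M21. The library kit keeps strand, but whether the counting used it is not given in the sources used here.

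**Figure D2:**
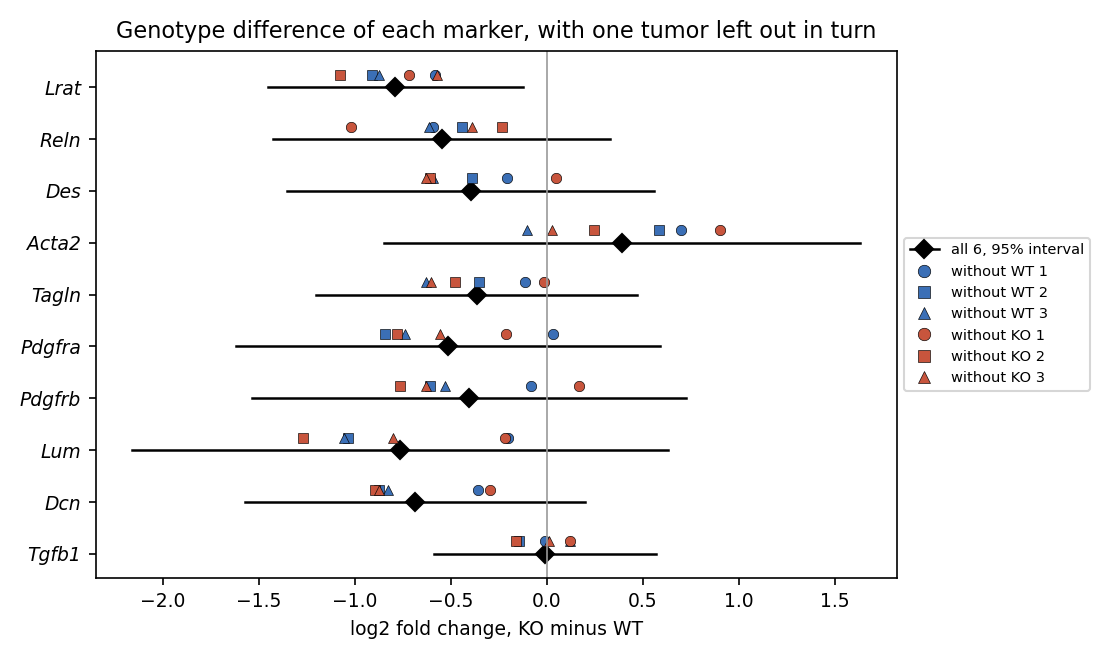
Log2 fold changes of each marker, KO minus WT (x axis), are drawn as diamonds with 95% intervals from limma, and coloured symbols give the value with 1 library left out. The interval of Lrat alone lies below 0, and leaving out KO replicate 1 moves Reln down to -1.02 and Acta2 up to 0.90.

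The balance of activated over quiescent markers was read within each library as the mean of Acta2 and Tagln minus that of Lrat, Reln and Des, each gene first centred on its mean over the 6 libraries. It was 0.024, -0.087 and -0.82 across the WT tumors and -0.54, 0.43 and 0.99 across the KO tumors. KO replicates 2 and 3 were the highest, while KO replicate 1 lay below WT replicates 1 and 2. WT averaged -0.30 ± 0.46 (SD, n = 3), KO 0.30 ± 0.77 (SD, n = 3), a difference of 0.59 with overlapping groups. Without Reln, a choice made after seeing the data, the difference was 0.61, and KO replicates 1 and 2 were then at -0.043 and 0.060, near WT replicate 2 at 0.016. With 1 library left out, the difference with Reln was lowest when KO replicate 3 (0.24) or WT replicate 3 (0.33) was dropped and highest when KO replicate 1 was (1.01). In the form without Reln, KO replicate 3 was highest, at 0.89, and WT replicate 3 lowest, at -0.78.

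**Figure D3:**
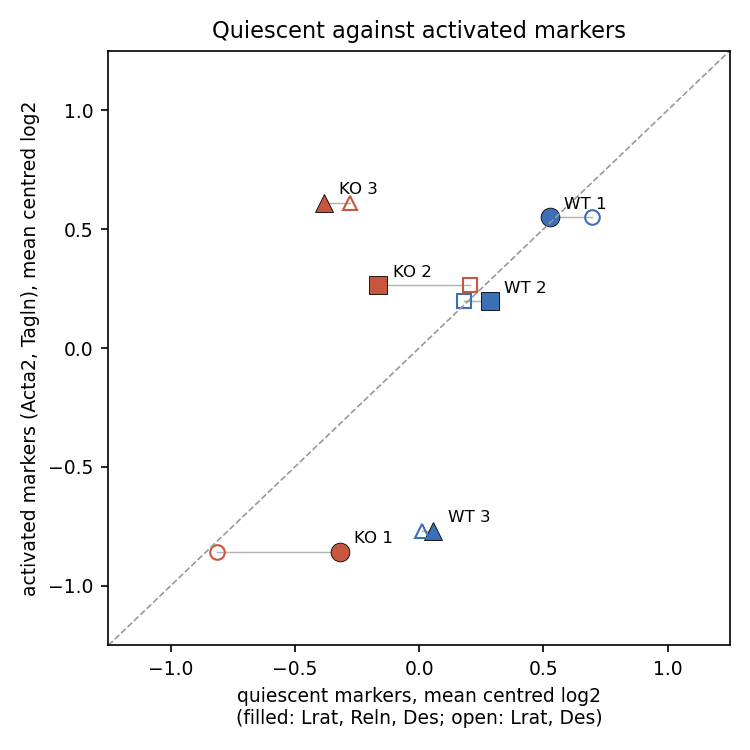
The mean centred log2 value of Acta2 and Tagln (y axis) is plotted against that of the quiescent markers (x axis) for the 6 libraries, WT blue and KO red, with filled symbols for Lrat, Reln and Des and open symbols without Reln. The dashed line marks equal values, and KO replicates 2 and 3 lie above it while KO replicate 1 and WT replicate 3 lie low on the y axis.

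The PDGF receptors, which carry the growth signal of stellate cells and fibroblasts, ranged over 2.23 (Pdgfra) and 2.21 (Pdgfrb) log2 units between tumors. Pdgfra was 9.69, 7.93 and 8.15 across the WT tumors and 7.46, 8.60 and 8.15 across the KO tumors. WT replicate 1 stood above all others, and the log2 fold change of -0.52 (standard error 0.48, interval -1.62 to 0.59, adjusted p = 0.999 by limma) was 0.034 without that library. Pdgfrb was 9.86, 8.81 and 8.97 across the WT tumors and 7.65, 9.51 and 9.24 across the KO tumors. KO replicate 1 stood below all others, and the log2 fold change of -0.41 (standard error 0.49, interval -1.54 to 0.72, adjusted p = 0.999 by limma) was 0.17 without it. Of the 4 PDGF ligand genes tested, 2 were higher in KO and 2 lower, and their median was 0.081. Pdgfd, a ligand of the beta receptor, was 6.79, 6.61 and 6.24 across the WT tumors and 5.36, 5.33 and 6.14 across the KO tumors. The groups did not overlap (log2 fold change -0.94, standard error 0.31, unadjusted p = 0.0174 and adjusted p = 0.999 by limma). Pdgfd was -0.80 to -1.20 with 1 library left out.

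Both matrix proteoglycans were lower on average in KO and highest in WT replicate 1. Lum, lumican, which binds collagen fibrils, was 10.23, 8.56 and 8.52 across the WT tumors and 7.25, 9.36 and 8.42 across the KO tumors. It had the widest range of the 10 markers, 2.98 on the log2 scale. Its log2 fold change was -0.76 (standard error 0.60, interval -2.16 to 0.63, adjusted p = 0.999 by limma), -0.22 without KO replicate 1 and -0.20 without WT replicate 1. Dcn, decorin, which binds collagen and TGF-beta, was 11.86, 10.83 and 10.92 across the WT tumors and 9.73, 10.92 and 10.89 across the KO tumors. Leaving aside the extreme library of each group, Dcn spanned only 10.83 to 10.92. Its log2 fold change was -0.69 (standard error 0.38, interval -1.57 to 0.20, adjusted p = 0.999 by limma), and -0.29 without KO replicate 1.

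Among 8 other small leucine-rich proteoglycan genes, 7 were lower in KO and 1 higher, their median being -0.34, against -0.13 without KO replicate 1 and -0.096 when WT replicate 1, the highest library in 7 of the 8, was left out. Podn, podocan, was the 1 gene of that list at an unadjusted p under 0.05, at 6.89, 6.29 and 5.95 across the WT tumors and 4.75, 5.69 and 5.14 across the KO tumors (log2 fold change -1.18, standard error 0.37, unadjusted p = 0.0123 and adjusted p = 0.999 by limma). Its groups did not overlap, and its value was -1.43 to -0.93 with 1 library left out. Over all genes tested, 2.56% were lower at an unadjusted p under 0.05 by limma and 4.33% separated lower in KO. The 15 fibrillar matrix genes, which include type I and type III collagen and fibronectin, had 14 lower and 1 higher, a median of -0.32, and 0 at an unadjusted p under 0.05. KO replicate 1 was lowest in 12 and WT replicate 1 highest in 13 of these, and without KO replicate 1 the median was 0.11. The widest change in that list, of Col5a2, was -0.63 with overlapping groups.

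Tgfb1, the ligand that drives matrix synthesis in stellate cells and is made by many cells of the liver, had the smallest difference between genotypes of the 10. It was 6.60, 6.33 and 6.86 across the WT tumors and 6.32, 6.89 and 6.54 across the KO tumors, means of 6.59 ± 0.26 (SD, n = 3) and 6.58 ± 0.29 (SD, n = 3). The log2 fold change was -0.0096 (standard error 0.25, adjusted p = 0.999 by limma), and its 95% interval of -0.59 to 0.57 leaves KO levels from 0.665 to 1.48 times those of WT. Its sign turned under quantile normalization (0.037) and median centring of the libraries (0.045). Of 20 other genes of the TGF-beta pathway 16 were lower and 4 higher, with a median of -0.13. Itgb8, an integrin subunit that activates latent TGF-beta, was 6.59, 6.02 and 5.38 across the WT tumors and 4.27, 4.71 and 4.93 across the KO tumors, with no overlap (log2 fold change -1.36, standard error 0.40, unadjusted p = 0.00928 and adjusted p = 0.999 by limma). Smad4, the common partner of the receptor-activated SMADs, did not overlap in the other direction, at 9.29 to 9.52 in WT and 9.53 to 9.67 in KO (log2 fold change 0.21, unadjusted p = 0.145 by limma). In that list 1 gene separated higher in KO and 1 lower, against 3.95% and 4.33% of all genes tested. Of 10 target genes 8 were lower and 2 higher, with a median of -0.26 and 0 at an unadjusted p under 0.05.

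Of 14 further genes of quiescent stellate cells, 10 were lower in KO and 4 higher, the median was -0.30, and 0 had an unadjusted p under 0.05. Leaving out KO replicate 1 gave a median of -0.13, and leaving out WT replicate 1 gave 0.015. Gfap, a glial filament of stellate cells, had the widest change (-1.12, standard error 0.81) at values from 1.31 to 4.598. Of 11 genes of retinoid handling 6 were higher and 5 lower, with a median of 0.0050. Lpl, a lipase that acts on lipoprotein fats and retinyl esters, was 10.85, 10.81 and 10.68 across the WT tumors and 11.63, 11.59 and 12.19 across the KO tumors. The groups did not overlap (log2 fold change 1.02, standard error 0.19, unadjusted p = 0.000598 and adjusted p = 0.938 by limma), and Lpl kept 0.83 to 1.13 with 1 library left out. Stra6, a retinol transporter, was listed from -0.89 to 0.23, among the lowest values tested (log2 fold change -0.69, unadjusted p = 0.0434 and adjusted p = 0.999 by limma). Of 15 other contractile genes 11 were lower and 4 higher, with a median of -0.092 and 0 at an unadjusted p under 0.05. That median turned to 0.10 when KO replicate 1 was left out and to 0.045 when WT replicate 1 was. Among them 2 genes did not overlap, in opposite directions, where 3.95% of all genes tested separated higher in KO and 4.33% lower. Cald1, caldesmon, was 12.33 to 12.54 in WT and 12.56 to 12.76 in KO (log2 fold change 0.18, unadjusted p = 0.290 and adjusted p = 0.999 by limma). Cnn1, calponin of smooth muscle, was 3.28 to 3.56 in WT and 2.35 to 2.62 in KO (log2 fold change -0.95, unadjusted p = 0.0502 and adjusted p = 0.999 by limma).

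**Figure D4:**
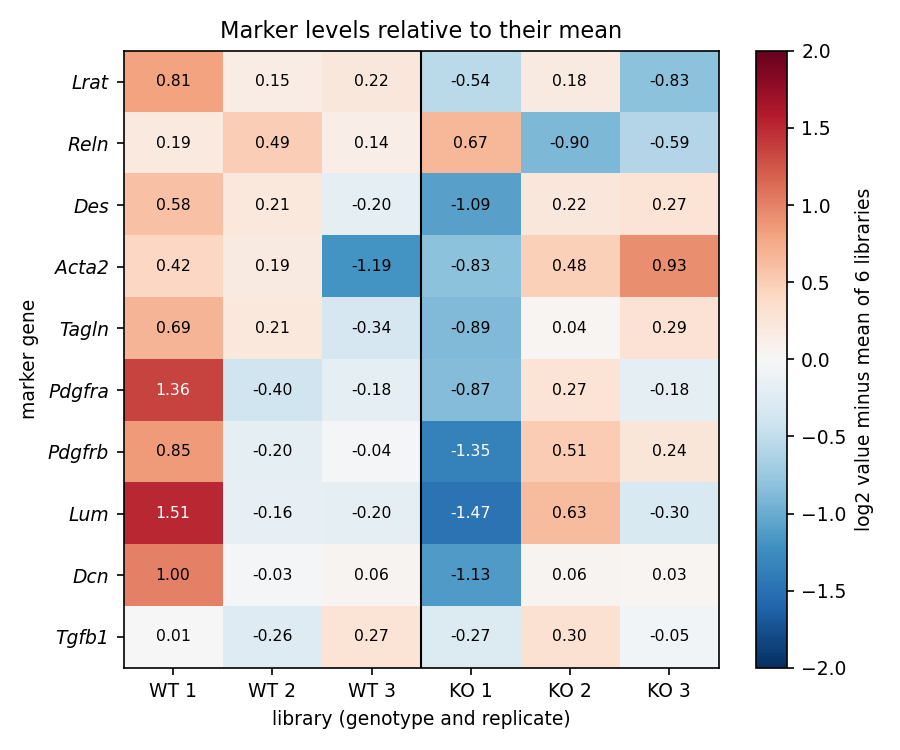
Each cell gives the log2 value of a marker (rows) in a library (columns) minus the mean of that marker over the 6 libraries, red above and blue below, with WT left of the line and KO right of it. Des, Tagln, Pdgfra, Pdgfrb, Lum and Dcn are all high in WT replicate 1 and low in KO replicate 1, where Reln is high.

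Across the tumors, Des, Tagln, Pdgfra, Pdgfrb, Lum and Dcn were the markers both highest in WT replicate 1 and lowest in KO replicate 1. Their mean centred value was 0.997 in WT replicate 1, -1.13 in KO replicate 1 and -0.15 to 0.29 in the other 4. Because those places define this set, its values there are high and low by construction. Lrat, Acta2 and Reln were at 0.81, 0.42 and 0.19 in WT replicate 1. In KO replicate 1 they were at -0.54, -0.83 and 0.67. Of the 45 pairs of markers 35 had a positive Pearson r over the 6 libraries, and 0 passed an adjusted p of 0.05 by exact permutation, the smallest being 0.0938. Des and Tagln had r = 0.97 (exact permutation p = 0.00278, adjusted p = 0.0938) and Spearman rho = 0.94 (exact permutation p = 0.0167, adjusted p = 0.188). This r was 0.95 without KO replicate 1 and WT replicate 3, the libraries farthest from the median of Des. Pdgfrb and Dcn had r = 0.94 (exact permutation p = 0.00417, adjusted p = 0.0938) and rho = 0.94 (exact permutation p = 0.0167, adjusted p = 0.188), and r = 0.71 without KO replicate 1 and WT replicate 1. Acta2 and Tagln had r = 0.78 (exact permutation p = 0.0694, adjusted p = 0.195) and rho = 0.66 (exact permutation p = 0.175, adjusted p = 0.342). Their r was -0.0079 without WT replicate 3 and KO replicate 1, the libraries farthest from the median of Acta2, 0.73 without KO replicate 1 alone, and 0.97 with both genes centred within genotype. Over all 6 libraries the relation thus rests on those at the low end of Acta2.

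For Reln, r was negative in 8 of its 9 pairs, Lrat being the exception at 0.12 (exact permutation p = 0.814, adjusted p = 0.852), with rho = -0.086 (exact permutation p = 0.919, adjusted p = 0.919). With Pdgfrb, r was -0.61 (exact permutation p = 0.196, adjusted p = 0.367) and rho was -0.66 (exact permutation p = 0.175, adjusted p = 0.342). Their r was -0.84 without KO replicates 2 and 3, the libraries farthest from the median of Reln, and -0.36 without KO replicate 1. With both genes centred within genotype, r of Reln and Pdgfrb was -0.90. Much of the opposite direction rested on KO replicate 1. Without that library, r with Reln was -0.045 for Des, -0.0099 for Lum, 0.0059 for Pdgfra, 0.0996 for Tagln and 0.25 for Dcn, while Tgfb1 (-0.54) and Acta2 (-0.46) stayed negative.

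The genes most like a marker over the 6 libraries were taken by Pearson r, as a description, since 22677 genes were compared over 6 points. For Pdgfrb they were P3h3, Fam205c, Col5a1, Tyw1 and Rgl2 (r from 0.987 to 0.995), of which P3h3 and Col5a1 belong to collagen synthesis. For Lrat they were Mis18a, Prkg2, Ptgfr, Efna2 and Por (0.986 to 0.995), and for Acta2 Polr3c, Gm16210, Gm9750, Adck2 and Gabarapl1 (0.988 to 0.994). None of these was another marker. For Reln, added after seeing the data, they were Trp53tg5, Rapgef2, Tex261, Avpi1 and Edc3 (0.987 to 0.998).

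Levels were compared between markers as log2 values per kilobase of the longest coding transcript in GENCODE M21. Dcn was highest at 10.04 ± 0.68 (SD, n = 6) and Reln next at 9.28 ± 0.62 (SD, n = 6). Dcn lay above Reln in 5 of 6 libraries, KO replicate 1 being the exception. Reln lay above Lum, at 7.43 ± 1.002 (SD, n = 6), in 6 of 6. Lum, Tagln (7.06), Acta2 (6.80), Pdgfrb (6.57) and Lrat (6.31) formed a run whose neighbours differed by 0.23 to 0.38, with SDs of 0.55 to 1.002. Within libraries, Lum lay above Tagln in 4 of 6, Tagln above Acta2 in 4 and Acta2 above Pdgfrb in 4. Pdgfrb lay above Lrat in 3 of 6. Lrat was above Pdgfra (5.56) in 6 of 6 libraries, while Pdgfra was above Tgfb1 (5.47) in 2 of 6. Des was last at 4.66 ± 0.59 (SD, n = 6), below Tgfb1 in 6 of 6.

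Markers of other cells that could add to these values were measured beside them. Of 8 portal fibroblast genes 7 were lower and 1 higher in KO (median -0.48), with a summed level of 8.96 to 9.66 in WT and 8.56 to 9.39 in KO. The median was -0.21 when KO replicate 1 was left out and -0.071 when WT replicate 1 was. In that list Pi16 did not overlap (-1.03, unadjusted p = 0.0694 by limma) and Thy1 did (-1.01). All 8 smooth muscle and pericyte genes were lower on average (median -0.13), with sums of 10.17 to 10.53 in WT and 9.96 to 10.52 in KO. KO replicate 1 was lowest in 7 of these, and the median turned to 0.14 without it. Myh11, smooth muscle myosin, was 7.97, 7.42 and 6.82 across the WT tumors and 6.37, 7.47 and 7.99 across the KO tumors, highest in WT replicate 1 and KO replicate 3 and lowest in KO replicate 1, as Tagln was. Of 5 genes of the mesothelium, the lining of the liver surface, all 5 were lower (median -2.11). Their sums, 7.48 to 8.999 in WT and 5.94 to 7.46 in KO, did not overlap, but they include Krt19, also a bile duct gene. In WT replicate 3, the lowest WT sum, Krt19 was 6.93, while Msln, Upk3b, Wt1 and Gpm6a were 4.06, 4.24, 1.935 and 4.15. Each of these lay below KO replicate 2 (5.19, 4.48, 5.07 and 5.98), so the separation of the sums rests on Krt19. Msln, mesothelin, was 6.98, 6.36 and 4.06 across the WT tumors and 2.84, 5.19 and 2.81 across the KO tumors (log2 fold change -2.18, unadjusted p = 0.0426 and adjusted p = 0.999 by limma). Upk3b had a log2 fold change of -2.11 (unadjusted p = 0.0186 and adjusted p = 0.999 by limma), with overlapping groups. The part of these cells in the marker values was not tested.

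The bile duct list, which shares Krt19 with the mesothelial list, had 3 of 5 genes lower, 2 higher and a median of -1.19. Its sums, 11.58 to 12.62 in WT and 11.70 to 12.58 in KO, were led by Spp1 (11.32 to 12.56 in WT and 11.62 to 12.54 in KO). Krt19 was 6.11, 4.75 and 6.93 across the WT tumors and 2.86, 4.38 and 2.502 across the KO tumors, with no overlap (log2 fold change -2.68, unadjusted p = 0.00491 and adjusted p = 0.987 by limma). Krt7 had -2.20 (unadjusted p = 0.0170 by limma) and Epcam -1.19 (unadjusted p = 0.0685 by limma), while Sox9 (0.15) and Spp1 (0.045) were higher on average. Of 7 hepatocyte genes 4 were lower and 3 higher (median -0.060). Their sum, led by Alb, was highest in KO replicate 1, at 21.41 against 20.60 to 21.31 elsewhere. Cyp2e1, the enzyme that activates carbon tetrachloride, was 14.52, 13.70 and 13.86 across the WT tumors and 12.52, 13.06 and 13.82 across the KO tumors (log2 fold change -0.89, unadjusted p = 0.0422 and adjusted p = 0.999 by limma). It was lowest in KO replicate 1 and highest in WT replicate 1, the tumors at the ends of most stellate markers. Of the 7 hepatocyte genes, 1 was lowest in KO replicate 1 and 2 were highest in WT replicate 1. A link between Cyp2e1 and the markers was not tested.

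KO replicate 1 was the lowest library in 1 of 7 endothelial, 3 of 7 macrophage and 2 of 6 leukocyte and platelet genes, though the summed levels of the last 2 lists were lowest there. Of 7 sinusoidal endothelial genes 6 were higher and 1 lower (median 0.048), with sums of 12.82 to 13.06 in WT and 12.91 to 13.22 in KO. Cdh5, the endothelial cadherin, was 9.96, 9.47 and 9.78 across the WT tumors and 10.09, 10.07 and 10.26 across the KO tumors (log2 fold change 0.40, unadjusted p = 0.0349 and adjusted p = 0.999 by limma). Pecam1 was 9.43 to 9.62 in WT and 9.66 to 9.68 in KO, also without overlap, and Stab2 was 11.31 to 11.65 and 11.52 to 11.84. Over all genes tested, 3.95% separated higher in KO. Of 7 Kupffer cell and macrophage genes 4 were higher and 3 lower (median 0.072), with sums of 12.32 to 13.41 in WT and 12.22 to 12.93 in KO. Their log2 fold changes were -0.29 for Cd5l, -0.18 for Csf1r and 0.14 for Clec4f. Of 6 leukocyte and platelet genes 4 were lower and 2 higher (median -0.088), with sums of 9.55 to 10.01 in WT and 9.52 to 9.84 in KO. Ptprc, on all leukocytes, had a log2 fold change of -0.11, and Cd3e, of T cells, one of -1.03 at values under 3.28, with no overlap. Leaving out KO replicate 1 gave medians of -0.29 for the hepatocyte, 0.17 for the endothelial, 0.15 for the macrophage, -0.79 for the bile duct and -0.0023 for the leukocyte and platelet list.

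**Figure D5:**
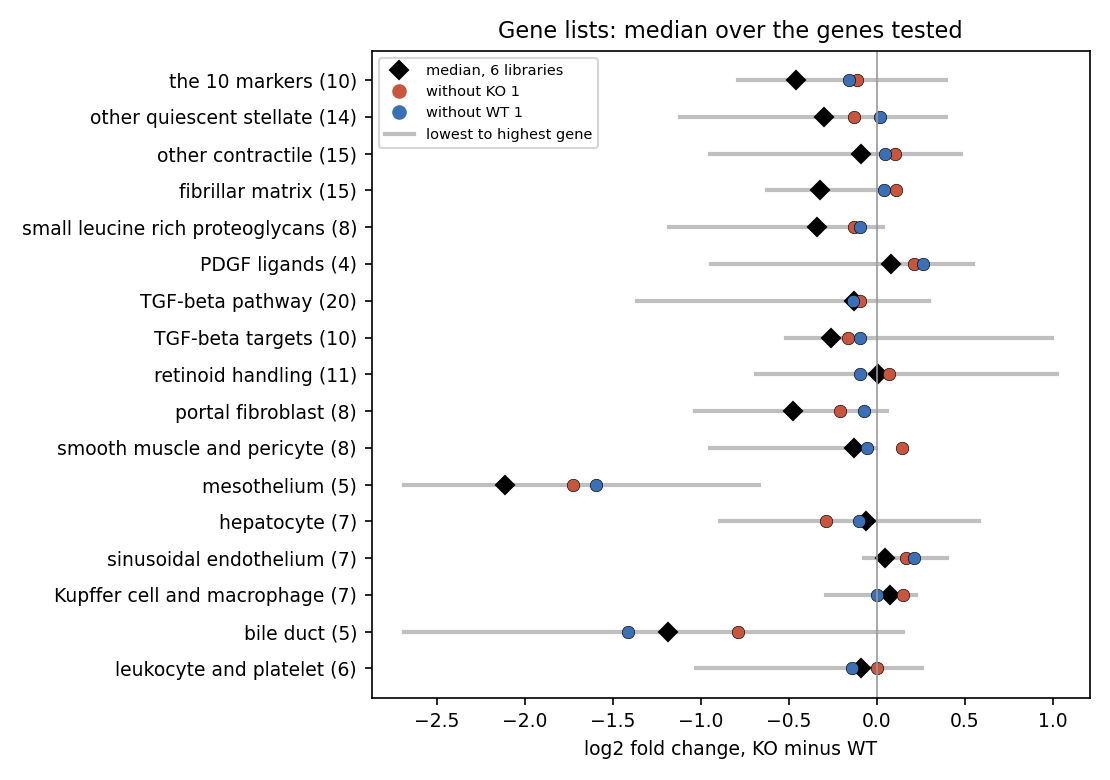
Median log2 fold changes, KO minus WT (x axis), are shown for the markers and for each gene list (y axis, genes tested in parentheses) with all 6 libraries (diamonds), without KO replicate 1 (red) and without WT replicate 1 (blue), and grey bars from the lowest to the highest gene. The fibrillar matrix median moves from -0.32 to 0.11 without KO replicate 1 and to 0.042 without WT replicate 1, and the mesothelial median is -1.60 or lower throughout.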

How the data were processed

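RNA-Seq was performed on 3 WT and 3 KO liver tumors. The authors trimmed reads with Trimmomatic, kept uniquely mapped reads, counted them with featureCounts and used DESeq2. The methods name BWA and Mm 8, whereas the submitters' processing notes name STAR 2.5.1 and GRCm38. The authors deposited log2 values per gene symbol. The transform is not given in the sources used here, and read depth is unknown, so no count test was run. Another 3 unnamed columns were not used.

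The genotype contrast was fitted in R 4.3.3 by limma 3.58.1 (lmFit, eBayes with trend, Benjamini-Hochberg adjustment) over 22677 genes. Single values were compared by exact two-sided permutation over 20 regroupings, and correlations over 720 pairings. Summed levels are the log2 of summed linear values. The members and lists were chosen with earlier results of these data known. Genes named are the markers, Top1mt, list genes at an unadjusted p under 0.05 or otherwise with the widest change, defining markers of other cells, and the 5 genes most like Lrat, Acta2 and Pdgfrb. Pi16, Cald1, Smad4, Wt1, Gpm6a, Sox9, Spp1, Lars2, Gm10475, Gm48529 and Gm42418 were chosen after their values were seen. A further gene that the rule names is not reported here. The fit was tested on simulated data. Alternatives were limma without trend, quantile normalization, median centring, no filter or one at the median, the replicate block, library weights and each library left out.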

Additional observations from a re-analysis of the deposited data

How the results depend on the processing

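With every gene kept, 4 genes were under an adjusted p of 0.05, and 0 to 1 were with 1 library left out, the 1 (Prom1) without KO replicate 1. The replicate block gave 0 genes (912 at an unadjusted p under 0.05 by limma, against 985), and the deviations of same-numbered libraries had correlations of -0.12, -0.076 and 0.052, which gives no pairing. None of the markers passed under any alternative. With 1 library left out the log2 fold change ran from -0.63 to 0.048 for Des, -0.11 to 0.90 for Acta2, -0.85 to 0.034 for Pdgfra, -0.76 to 0.17 for Pdgfrb and -0.16 to 0.12 for Tgfb1, each turning sign, and from -1.27 to -0.20 for Lum and -0.89 to -0.29 for Dcn. Tgfb1 also turned under quantile normalization (0.037), median centring (0.045) and library weights (0.035). Without both WT replicate 1 and KO replicate 1 the values were 1.21 for Acta2, 0.24 for Des, 0.24 for Tagln, 0.34 for Pdgfra, 0.49 for Pdgfrb, 0.35 for Lum, 0.034 for Dcn and 0.12 for Tgfb1. The median of the activated markers, 0.013, ran from -0.37 to 0.44 with 1 library left out, that of the quiescent markers kept its sign, and the balance of both, 0.59 with the block, ran from 0.24 to 1.01. The causes were not tested.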
